A study of Bos grunniens with 6 samples.

Results

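The m6A peaks called only in juvenile yak testis were examined on chromosomes 1 and 2. A peak was taken as Y6M-only when its span on the list of the 6-month-old yaks (Y6M) shared no base with any peak on the list of the 30-month-old yaks (Y30M). The regions were thus chosen by the peak calls of both lists, and their absence from the Y30M list is not a finding. Of 1289 Y6M peaks on these chromosomes, 363 were Y6M-only (28.2%, 95% Wilson interval 25.8 to 30.7, counting error only), and 926 overlapped a Y30M peak. The whole Y6M list held 15116 peaks. The Y30M list used here covered chromosomes 1 and 2 alone, with 1284 peaks, of which 375 (29.2%) overlapped no Y6M peak and are called Y30M-only.

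Testis parenchyma was taken from 6 healthy male yaks (Bos grunniens), 3 at 6 months, before sexual maturity, and 3 at 30 months, after it. No genetic change or treatment was applied to either group. Fragmented polyadenylated RNA was immunoprecipitated with an m6A antibody (IP), and the RNA without immunoprecipitation served as input. Each group had 1 peak list made over its 3 yaks, so no peak has a replicate value and nothing about the peaks could be tested over animals. Only the input expression values, as FPKM (sequenced fragments scaled to transcript length and library size), are given for each yak.

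N6-methyladenosine (m6A) is a methyl mark placed on adenosines of messenger RNA by a methyltransferase complex, removed by demethylases and bound by reader proteins that affect splicing, stability and translation. In the testis, writers, erasers and readers are known to be needed for the progress of germ cells through meiosis and sperm formation. In MeRIP-seq, a peak is a stretch of transcript with more IP than input reads, and a weakly expressed transcript is less likely to give one. The juvenile testis holds mainly Sertoli cells, early germ cells and interstitial cells, whereas the mature testis is filled with meiotic and later germ cells.

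Named Sertoli, Leydig and spermatid cell markers matched a juvenile and a mature testis, whereas the sums of the spermatocyte markers overlapped between the ages. Names came only from lists the study reported, so the named markers are a selected part. Of all genes tested, 16.4% were called lower and 25.3% higher in Y30M. Of the Sertoli cell markers, 3 of 11 listed genes had a name (SOX9, FSHR, DHH), all 3 were lower in Y30M, and their summed FPKM ranged from 108 to 125 in Y6M and from 25.7 to 45.3 in Y30M. LHCGR, the luteinizing hormone receptor and the 1 named gene of 7 Leydig cell markers, was lower in Y30M, at 34.4 to 67.3 against 1.44 to 5.37 FPKM. The 3 named of 5 endothelial markers (PECAM1, CDH5, TEK) were all lower in Y30M, with sums of 17.4 to 25.8 against 5.16 to 8.13 FPKM. GSG1, the 1 named gene of 11 spermatid markers, was at 0.588 to 1.09 FPKM in Y6M and at 442 to 1204 FPKM in Y30M. AIF1, the 1 named of 5 macrophage markers, was higher in Y30M, at 17.2 to 38.8 against 3.72 to 10.99 FPKM. Of 9 spermatocyte markers, 3 had a name (SYCP3, HORMAD1, MLH3) and 1 was called higher, with sums of 11.4 to 32.3 against 17.1 to 79.6 FPKM. No spermatogonium marker (0 of 9) and no peritubular myoid marker (0 of 5) had a name. Replicate 3 of each age deviated from the other yaks of its group in a shared direction, and the main counts are therefore also given without it. In bulk tissue, fewer cells of a type and less RNA per cell cannot be told apart, and the part of cell composition in the peak lists was not tested.

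The 363 Y6M-only peaks lay in similar shares on both chromosomes, 169 of 611 Y6M peaks on chromosome 1 (27.7%) and 194 of 678 on chromosome 2 (28.6%). Together they covered 2.04 Mb of the 9.38 Mb spanned by all Y6M peaks. The spans run from start to end of a peak on the genome (build LU_Bosgru_v3.0) and so include introns. The median length was 1353 bp (quartiles 249 and 5783 bp), and the mean was 5620 ± 11720 bp (SD over 363 peaks). The shortest measured 144 bp and the longest 101062 bp. Of the Y6M-only peaks, 130 (35.8%) were under 500 bp and 96 (26.4%) over 5000 bp.

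The lengths of Y6M-only peaks were close to those of the Y6M peaks that overlapped a Y30M peak. The overlapping peaks had a median of 1234 bp, with 33.9% under 500 bp. Y30M-only peaks were shorter, with a median of 450 bp and 51.5% under 500 bp. At the short end, Y6M-only peaks had a lower first quartile than overlapping peaks, 249 against 351 bp. Length bears on the chance of an overlap, so these lengths are not independent of the rule that chose the regions.

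**Figure D1:**
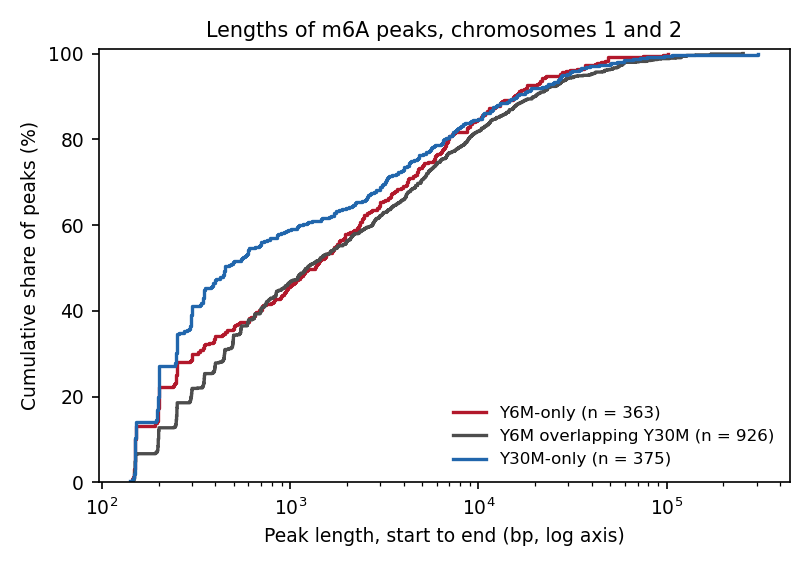
Cumulative share of peaks (y axis, %) by peak length in bp (x axis, log scale) on chromosomes 1 and 2, with 1 line for each class of peak. The Y6M-only line (363 peaks) and that of the 926 overlapping Y6M peaks cross their medians near each other (1353 and 1234 bp), and the Y30M-only line (375 peaks) lies above both in the short range, with a median of 450 bp.

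The longest Y6M-only peak reached MGAT5, an enzyme that branches N-glycans, at chr2:80785257-80886318. It held 1918 scored adenosines, 317 of them predicted as m6A sites, and lay 257758 bp from the nearest Y30M peak. Next in length were a peak of 95282 bp at chr1:138178482-138273763, for which no gene was reached, and a peak of 74973 bp in ROBO2, a receptor for SLIT guidance proteins, at chr1:12556128-12631100. They held 1734 and 1710 scored adenosines. Peaks of 48884 bp (ENSBGRG00000023053, chr1:78422392-78471275) and 48793 bp (no gene reached, chr1:103504347-103553139) followed. Where a row of the comparison table was reached, little of a long span was exon. In the comparison table the MGAT5 row consisted of 2 exon blocks of 347 bp in all, and the ROBO2 row of 1 block of 200 bp. These blocks held 2 of the 317 predicted sites of MGAT5 and 1 of the 289 of ROBO2. Neither row had an enrichment false discovery rate of at most 0.05. The 3 shortest peaks measured 144, 145 and 145 bp and held 2, 6 and 4 scored adenosines.

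Few Y6M-only peaks lay next to a Y30M peak. The gap to the nearest one had a median of 37067 bp, and 115 peaks (31.7%) were more than 100000 bp away. Only 34 (9.37%) lay within 1000 bp and 13 within 200 bp. Such gaps were not particular to this pair of lists. The median gap was 50281 bp to the nearest overlapping Y6M peak and 48049 bp to the nearest other Y6M-only peak. For Y30M-only peaks the median gap to a Y6M peak was 49269 bp. Just inside the rule were the peak of 95282 bp on chromosome 1, with a gap of 48 bp, and peaks of ENSBGRG00000003473 (149 bp long) and Znf142 (1507 bp long), each with a gap of 49 bp. Znf142 encodes a zinc finger protein. Just outside it were Y6M peaks of TMEM37, with 1 bp of overlap, and of the ephrin receptor gene EPHA6 and USF3, each with 50 bp. On either side of the threshold the distance was small against the median gap.

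Y6M-only peaks also followed each other along the chromosomes. In the order of the Y6M list they formed 215 runs with no overlapping peak in between, of which 138 were single peaks and 31 held 3 or more. These 31 runs took in 133 of the 363 peaks. The longest run held 12 peaks over 3548 kb of chromosome 2, with 2 Y30M-only peaks inside, and reached NIPA2 and 5 genes without a name. A run of 11 peaks with no Y30M-only peak inside spanned 299 kb of chromosome 1, and the collagen VI chain gene COL6A6 was the 1 gene reached there. A run of 9 on chromosome 2 reached AMMECR1L, POLR2D, UGGT1 and 2 genes without a name over 506 kb. A run of 7 on chromosome 1 reached CD96 and PHLDB2 over 458 kb, with 1 Y30M-only peak inside. These runs were picked for their length, and no expected number was computed.

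Each peak list scores adenosines inside the peaks with a combined prediction score, and those scoring 0.528 or more are classed as predicted m6A sites. The Y6M-only peaks held 43073 scored adenosines, 21.1 per kb, so that not every adenosine was scored. The median per peak was 26 (quartiles 5 and 112), 18 peaks held a single one, and 94 held 5 or fewer. Of all scored adenosines, 8232 (19.1%, 95% Wilson interval 18.7 to 19.5) were predicted sites, against 20.3% in overlapping Y6M peaks and 19.2% in Y30M-only peaks. By chromosome, Y6M-only and overlapping Y6M peaks had 18.8% and 19.3% on chromosome 1, and 19.5% and 21.3% on chromosome 2. The highest of the score classes took 760 adenosines (1.76%) in Y6M-only peaks and 2.20% in overlapping peaks. The median score was 0.410 in Y6M-only and 0.416 in overlapping peaks. These intervals cover counting error only, and adenosines of a peak share their transcript.

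The highest-scoring adenosine of each peak gave a similar order. Its score had a median of 0.651 in Y6M-only peaks (quartiles 0.580 and 0.704), 0.676 in overlapping Y6M peaks and 0.649 in Y30M-only peaks. No predicted site was found in 49 Y6M-only peaks (13.5%), against 9.50% of the overlapping ones. An adenosine of the highest class was present in 150 (41.3%), against 51.5%. The Y6M-only values lay close to those of Y30M-only peaks, of which 14.4% had no predicted site and 41.1% an adenosine of the highest class.

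The share of predicted sites was highest in the shortest peaks. In Y6M-only peaks under 500 bp, 36.2% of 575 scored adenosines were predicted sites (95% interval 32.4 to 40.2), and in those over 5000 bp 18.9% of 36877. Within each length class the share was lower than in overlapping Y6M peaks, which had 40.5%, 21.4% and 19.9% from the shortest class to the longest, against 36.2%, 19.0% and 18.9%. The interval of the shortest class was 38.2 to 42.8 in the overlapping peaks. These intervals count adenosines as independent, although those of a peak share their transcript, so comparing them is no test. The differences between Y6M-only and overlapping peaks, of 1.06 to 4.34 percentage points, have no replicate error. Of the short Y6M-only peaks, 30.8% had no predicted site, and of those over 5000 bp none (0 of 96).

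**Figure D2:**
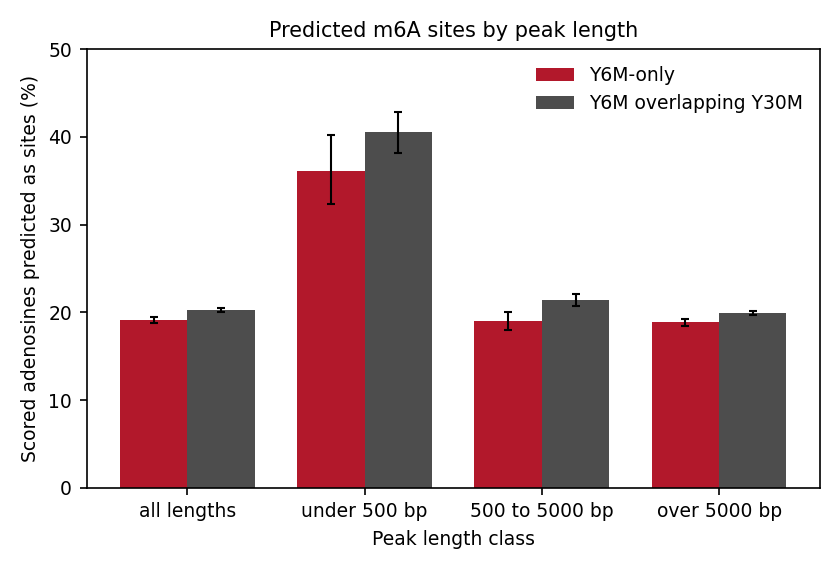
Share of scored adenosines predicted as m6A sites (y axis, %, from 0) by peak length class (x axis) for Y6M-only peaks and for Y6M peaks that overlap a Y30M peak, with 95% Wilson intervals as error bars. The error bars count adenosines as independent and carry no replicate error. The share is highest under 500 bp in both (36.2 and 40.5%) and is lower in Y6M-only peaks in every class.

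The best-scored adenosine of all, at 0.842, lay in a peak of 148 bp of ENSBGRG00000016923 at chr2:127308715-127308862, which held 5 scored adenosines with 3 predicted. The next were at 0.803 in a peak of 26990 bp with no gene reached, at 0.792 in Abcc5, an organic anion transporter (20885 bp), and at 0.789 in RNF168, a ubiquitin ligase of the DNA damage response (21865 bp). A peak of 150 bp with no gene reached followed at 0.785. By number of predicted sites, the MGAT5 peak led with 317, followed by peaks with 316, 297, 289 and 245 sites. The shortest of these 5 measured 36306 bp, and the one with 289 sites was that of ROBO2.

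The comparison table lists peaks called over both ages together, each with its gene, its exon blocks and its enrichment over input. Of the Y6M-only peaks, 207 (57.0%) overlapped such a row, against 92.0% of the overlapping Y6M peaks and 46.9% of the Y30M-only peaks. The other 156 (43.0%) had no row and so no gene or enrichment value. For 76 the row had the same start and end. The presence of a row rests on the same reads as the peak lists.

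Where a row existed, enrichment was lower in Y6M-only than in overlapping peaks. The fold enrichment of IP over input, pooled over both ages, had a median of 1.81 in Y6M-only peaks (quartiles 1.54 and 2.21, n = 207). It was 2.72 in overlapping Y6M peaks (n = 852) and 1.93 in Y30M-only peaks (n = 176). The false discovery rate of the enrichment, as the authors' caller gave it, was at most 0.05 in 125 of 207 (60.4%), against 78.9% and 48.3%. The rule used the calls at both ages, so this pooled value is given as a description and was not tested.

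**Figure D3:**
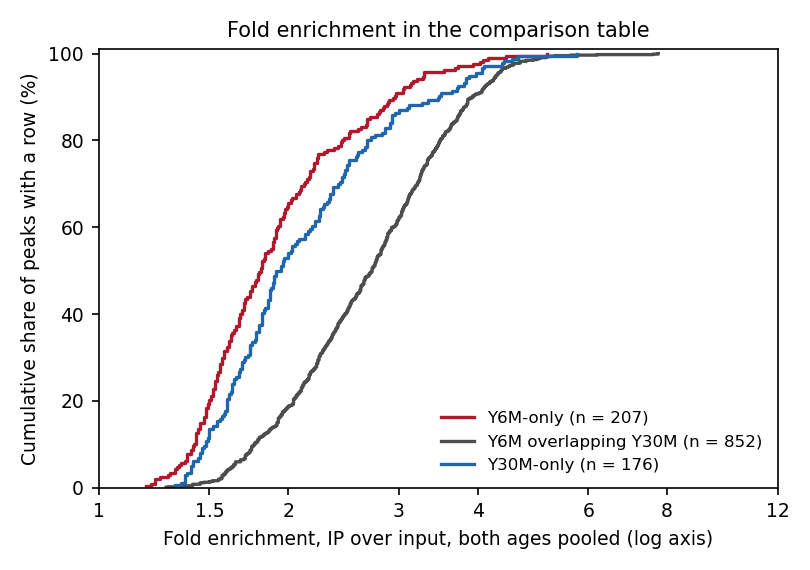
Cumulative share of peaks (y axis, %) by fold enrichment of IP over input pooled over both ages (x axis, log scale) for peaks with a row in the comparison table. The Y6M-only line (n = 207, median 1.81) lies over most of its range left of the Y30M-only line (n = 176, median 1.93) and of the overlapping Y6M peaks (n = 852, median 2.72).

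The highest enrichment among Y6M-only peaks was 5.15 in Znf142 (chr2:33060699-33062205), the peak that lay 49 bp from a Y30M peak. ITGA4, an integrin alpha chain that binds fibronectin and VCAM1, had 4.44 (chr2:133594688-133603912), AMMECR1L had 4.15 (chr2:145165088-145165975), and a peak of 250 bp of ENSBGRG00000004292 had 4.08. The highest enrichment false discovery rate of the 4 was 3.09e-05. The ITGA4 peak lay 5083 bp and the AMMECR1L peak 168499 bp from a Y30M peak.

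Rows give the exon blocks of a peak, and these were short. The blocks added up to a median of 201 bp in Y6M-only peaks and 399 bp in overlapping Y6M peaks. More than 1 block was present in 122 of 207 (58.9%), and those peaks had a median span of 3535 bp against 250 bp for the 85 with a single block, while their median exon lengths were 200.5 and 201 bp. Of 26628 scored adenosines in the 207 peaks, 980 (3.68%) lay inside the blocks. Inside them 34.8% were predicted sites, and outside 18.3%. In overlapping Y6M peaks these shares were 38.6% and 19.4%. By length class, from under 500 bp to over 5000 bp, 75.8%, 13.4% and 1.36% of scored adenosines in Y6M-only peaks lay inside blocks. For overlapping peaks it was 91.1%, 22.8% and 1.84%. In Y6M-only peaks, 37.0%, 33.3% and 34.7% of adenosines inside blocks were predicted sites, and 35.2%, 15.2% and 18.5% of those outside. Of the 207 peaks, 133 (64.3%) held a predicted site inside a block, against 75.6% of the overlapping ones. In 54 every predicted site lay outside the blocks, and 7 had no scored adenosine inside a block.

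The rows led to 158 genes. Of these, 130 had a single Y6M-only peak, 23 had a pair, 2 had 3 and 3 had 5. Names were paired with 68 of the 158. A Y6M peak that overlapped a Y30M peak was also present in 81 genes, so in those a peak was called at both ages elsewhere in the gene. A Y30M-only peak was also present in 16. No other peak of either list was reached in 71 genes. For 10 peaks the row gave no gene.

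Most of these genes were expressed at both ages. Of 157 with an FPKM value, 154 had a mean of at least 1 FPKM in Y6M and 133 in Y30M. The mean was under 1 FPKM in 24 of 157 in Y30M (15.3%) and in 3 of 157 in Y6M. In Y30M this share was 30.3% of all genes tested and 3.68% of the genes of overlapping Y6M peaks. In Y6M the counts were 7063 of 19477 and 16 of 543. The median of the means of the 157 genes was 8.80 FPKM in Y6M (quartiles 4.39 and 22.7) and 7.28 FPKM in Y30M (1.75 and 22.4). Over all 19477 genes tested, the medians were 3.79 and 5.29 FPKM, and over the genes of overlapping Y6M peaks 10.2 and 10.5 FPKM. The input libraries were the control of the peak calls, so these levels are not independent of the choice of the regions.

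Expression was compared between ages with limma on log2(FPKM + 1), and a gene was called at a Benjamini-Hochberg adjusted p of at most 0.05 over all 19477 genes and a fold change of at least 1.5. Of the 157 genes, 46 (29.3%) were called lower and 20 (12.7%) higher in Y30M. Over all genes tested, 16.4% were called lower and 25.3% higher. Without Y6M replicate 3 the counts were 40 lower and 25 higher, and without Y30M replicate 3 they were 49 and 19. The median log2 fold change, Y30M minus Y6M, was -0.52 over the 157 genes and 0.04 over all genes. Every Y30M library was below every Y6M library in 58 genes (36.9%) and above in 30 (19.1%), against 21.9% and 32.2% of all genes. The genes of Y30M-only peaks had 60 higher and 18 lower of 140, and those of overlapping Y6M peaks 120 higher and 112 lower of 543. Since expression enters the peak calls, these counts describe the genes, and nothing is read from them about methylation.

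The counts of called genes were similar for genes with and without a Y6M peak that overlapped a Y30M peak. Among 81 genes that also had an overlapping Y6M peak, 22 were lower and 9 higher in Y30M. Among the 76 tested without one, 24 were lower and 11 higher. The remaining 91 of the 157 genes were not called in either direction. Over all genes tested, 16.4% were lower and 25.3% higher. The level in Y30M differed more, with a mean under 1 FPKM in 8 of the 81 genes and in 16 of the 76.

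**Figure D4:**
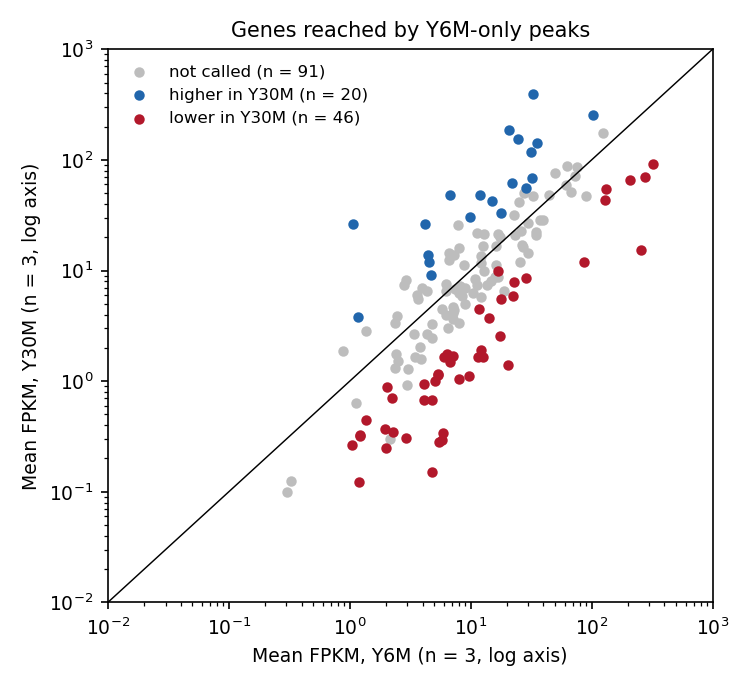
Mean input FPKM in Y30M (y axis) against Y6M (x axis), both log scales and n = 3 yaks each, with 1 point for each of 157 genes reached by Y6M-only peaks and the line of equal means. The 46 genes called lower in Y30M lie below the line, the 20 called higher lie above it, and the 91 others lie around it.

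The genes COL6A6, PHLDB2 and ENSBGRG00000004292 carried 5 Y6M-only peaks each, and all were lower in the mature testis. COL6A6, a collagen VI chain of the extracellular matrix, measured 3.31, 3.25 and 7.92 FPKM in Y6M replicates 1 to 3 and 0.517, 1.28 and 0.210 FPKM in Y30M. All Y6M values lay above all Y30M values, and the third Y6M yak was above the other two. The log2 fold change was -1.76 (SE 0.39, limma adjusted p = 0.00909). Its Y6M-only peaks measured 44659, 351, 500, 251 and 200 bp between positions 165749177 and 165826316 of chromosome 1. The longest held 234 of their 242 predicted sites. Inside exon blocks, 7 of the 242 sites remained. The enrichment false discovery rate was 1 for all 5 rows, with folds of 1.23 to 2.37. COL6A6 also had 1 Y6M peak that overlapped a Y30M peak.

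PHLDB2, a pleckstrin homology domain protein of the cell cortex, had no other peak of either list on its rows. It measured 15.6, 16.1 and 21.8 FPKM in the juvenile yaks and 5.96, 4.30 and 6.22 FPKM in the mature ones, without overlap (log2 fold change -1.53, SE 0.26, limma adjusted p = 0.00289). Its peaks lay between positions 61214295 and 61303663 of chromosome 1, 188674 bp or more from a Y30M peak, and held 200 predicted sites. Inside exon blocks, 36 of these sites remained (2, 16, 14, 2 and 2 by peak). The folds were 1.25 to 3.06. In Y30M its level was 5.49 ± 1.04 FPKM (SD, n = 3). The Y30M median was 5.29 FPKM over all genes tested and 10.5 FPKM over the genes of overlapping Y6M peaks. Whether its level bears on the lack of a Y30M peak was not tested.

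ENSBGRG00000004292, the third gene with 5, measured 6.40, 6.03 and 5.54 FPKM in the juvenile yaks and 1.83, 1.69 and 1.42 FPKM in the mature ones (log2 fold change -1.40, SE 0.26, limma adjusted p = 0.00392). The groups did not overlap. Its peaks were short (201 to 1548 bp) with 16 predicted sites in all. For 4 of them the row had an enrichment false discovery rate of 3.09e-05, and the first, with a fold of 4.08, held only 2 scored adenosines, neither predicted as a site.

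HSPD1, the mitochondrial chaperonin, and POLR2D, a subunit of RNA polymerase II, had 3 Y6M-only peaks each and no other. HSPD1 measured 65.3, 68.0 and 137 FPKM in the juvenile yaks and 43.5, 15.2 and 83.6 FPKM in the mature ones, so the groups overlapped. The third yak was highest in both groups. It was not called (log2 fold change -1.12, SE 0.60, limma adjusted p = 0.175), whereas with the replicate number as a block it was called lower (adjusted p = 0.0265). The log2 fold change rested on single libraries, at -0.48 without Y30M replicate 2 and -1.68 without Y30M replicate 3. POLR2D measured 7.74, 7.87 and 6.38 FPKM in the juvenile yaks and 14.4, 9.41 and 17.4 FPKM in the mature ones (log2 fold change 0.79, SE 0.29, limma adjusted p = 0.0618). Its groups did not overlap, yet it did not pass the threshold. Its peaks, of 399, 200 and 1949 bp, had enrichment false discovery rates of 1.48e-10, 1.00e-11 and 1.51e-08, with folds of 2.87, 2.97 and 1.47.

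**Figure D5:**
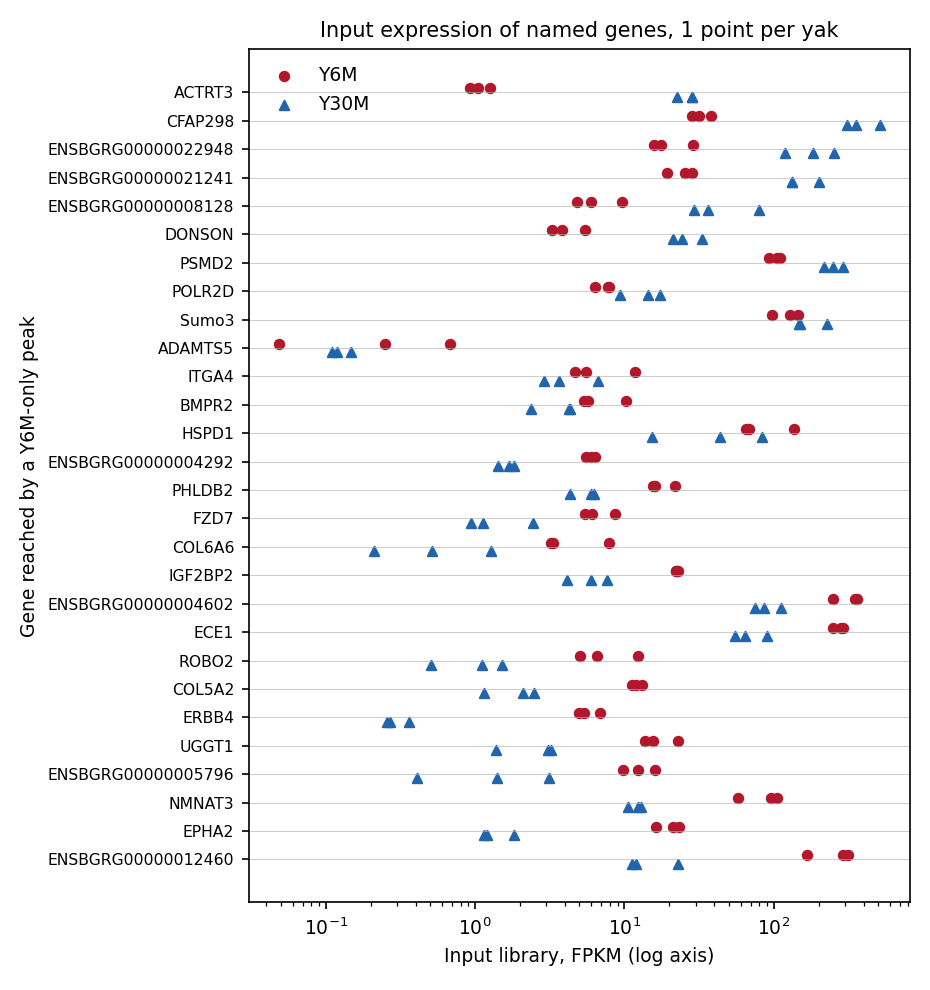
Input FPKM (x axis, log scale) of 28 genes reached by Y6M-only peaks (y axis), with 1 point for each yak, circles for Y6M and triangles for Y30M, ordered by log2 fold change. The groups are apart in all genes but HSPD1, ITGA4 and ADAMTS5, and the log2(FPKM + 1) change runs from 3.72 in ACTRT3 at the top to -3.997 in ENSBGRG00000012460 at the bottom. Many of the 28 genes were picked for large called changes, so this separation is not typical. Y30M is lower without overlap in 36.9% of the 157 genes and 21.9% of all genes tested, and higher in 19.1% and 32.2%.

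Genes that carried a juvenile-only peak could still be far more expressed in the mature testis. ACTRT3, an actin-related protein of the sperm head, measured 1.25, 0.922 and 1.05 FPKM in the juvenile yaks and 22.5, 28.5 and 28.3 FPKM in the mature ones. The ratio of means was 24.6 (log2 fold change 3.72, SE 0.26, limma adjusted p = 5.71e-05). Its Y6M-only peak of 200 bp (chr1:106133038-106133237) had 3 predicted sites of 6 scored adenosines, and a Y30M-only peak was also reached in the gene. The Y6M-only peak lay 1019 bp from the nearest Y30M peak.

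CFAP298, needed to assemble motile cilia and flagella, measured 31.6, 28.4 and 38.3 FPKM in the juvenile yaks and 312, 354 and 514 FPKM in the mature ones. Its log2 fold change was 3.52 (SE 0.24, limma adjusted p = 5.50e-05), and it had the highest mean over 6 libraries of the 157 genes, 213 FPKM. Its peak of 3484 bp (chr1:36123264-36126747) was the 1 peak reached in the gene and held 30 predicted sites, none inside its 4 exon blocks. DONSON, a DNA replication factor, averaged 4.18 ± 1.13 FPKM in Y6M (SD, n = 3) and 26.2 ± 5.99 FPKM in Y30M, a log2 fold change of 2.39 (limma adjusted p = 5.08e-04). ENSBGRG00000022948, ENSBGRG00000021241 and ENSBGRG00000008128, which have no name here, rose by 3.07, 2.61 and 2.58 on the log2 scale. In all 6 genes every Y30M library exceeded every Y6M library, but they were picked as the largest called rises, so this is no separate result. Of all genes tested, 32.2% were apart in this direction.

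On the log2(FPKM + 1) scale, which understates the change of genes at low levels, the largest falls were in ENSBGRG00000012460, EPHA2 and NMNAT3. By the ratio of means, Y6M over Y30M, CPN2 fell most, a gene named after its values were seen (31.5, from 4.80 to 0.152 FPKM), while ENSBGRG00000012460 had 16.7. ENSBGRG00000012460 measured 313, 290 and 167 FPKM in the juvenile yaks and 22.8, 11.98 and 11.2 FPKM in the mature ones (log2 fold change -3.997, SE 0.35, limma adjusted p = 1.39e-04). EPHA2, an ephrin receptor tyrosine kinase, measured 23.3, 21.1 and 16.3 FPKM in the juvenile yaks and 1.82, 1.15 and 1.21 FPKM in the mature ones (log2 fold change -3.15, limma adjusted p = 1.56e-04). NMNAT3, a mitochondrial enzyme of NAD synthesis, measured 106, 96.7 and 58.0 FPKM in the juvenile yaks and 12.9, 10.6 and 12.4 FPKM in the mature ones (log2 fold change -2.72, limma adjusted p = 2.17e-04). The groups were apart in each of these 3 genes, which were picked for their large called falls (21.9% of all genes tested were apart in this direction). Each also had at least 1 Y6M peak that overlapped a Y30M peak (1, 2 and 2), so a peak was called at both ages elsewhere in the gene.

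ERBB4, a neuregulin receptor, measured 4.97, 5.39 and 6.90 FPKM in the juvenile yaks and 0.259, 0.360 and 0.270 FPKM in the mature ones (log2 fold change -2.37, SE 0.23, limma adjusted p = 1.98e-04). On log2(FPKM + 1) this understates the change, and the ratio of means, Y6M over Y30M, was 19.4. Its 1 peak, of 250 bp (chr2:41164674-41164923), lay 1336043 bp from a Y30M peak and had 2 predicted sites, both inside the exon block. UGGT1, the glucosyltransferase that checks glycoprotein folding, fell from 17.3 ± 4.81 to 2.55 ± 1.02 FPKM (log2 fold change -2.38, limma adjusted p = 0.00137). ENSBGRG00000005796, with a pair of Y6M-only peaks, fell by 2.49 on the log2 scale (limma adjusted p = 0.00351).

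Among the most expressed genes, directions were mixed. ENSBGRG00000004602 measured 352, 361 and 251 FPKM in the juvenile yaks and 86.2, 74.5 and 112 FPKM in the mature ones (log2 fold change -1.81, limma adjusted p = 9.05e-04). ECE1, the endothelin-converting enzyme, measured 290, 283 and 248 against 90.4, 55.2 and 64.2 FPKM (log2 fold change -1.98, limma adjusted p = 4.63e-04). PSMD2, a proteasome subunit, measured 105, 110 and 92.4 against 290, 219 and 250 FPKM (log2 fold change 1.29, limma adjusted p = 0.00148). Sumo3, a ubiquitin-like modifier, measured 130, 146 and 98.2 against 227, 149 and 148 FPKM and was not called (log2 fold change 0.47, limma adjusted p = 0.176). The lowest library of these 4 genes was at 55.2 FPKM. In the Sumo3 peak of 6795 bp, 71 of 155 scored adenosines were predicted as sites, and in the ECE1 peak of 250 bp 3 of 5.

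Of the m6A machinery, 3 of 19 listed genes had a name on the table (YTHDF2, IGF2BP2, IGF2BP3), of which 1 was called higher and 1 lower in Y30M (25.3% and 16.4% of all genes tested). IGF2BP2, a reader that stabilises bound mRNA, was the 1 reached by a Y6M-only peak. It measured 22.2, 22.7 and 22.2 FPKM in the juvenile yaks and 5.96, 4.14 and 7.62 FPKM in the mature ones (log2 fold change -1.79, SE 0.26, limma adjusted p = 0.00138). The groups were apart, and no other peak was reached in the gene. Its peak of 6687 bp (chr1:88700320-88707006) held 18 predicted sites, 7 of them inside exon blocks.

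Of 35 listed genes of the extracellular matrix and adhesion, 12 had a name, and 4 of these carried a Y6M-only peak. Of the 12, 8 were called lower and 1 higher in Y30M, against 16.4% lower and 25.3% higher of all genes tested. Names came only from lists the study reported, so these shares are not like for like. COL5A2, a fibrillar collagen V chain, measured 11.2, 11.9 and 13.1 FPKM in the juvenile yaks and 2.49, 1.15 and 2.09 FPKM in the mature ones (log2 fold change -2.20, limma adjusted p = 0.00101). ROBO2 measured 6.52, 5.05 and 12.4 against 1.51, 0.504 and 1.12 FPKM (log2 fold change -2.08, limma adjusted p = 0.00432). Both were apart between the groups. ITGA4, at 5.52, 4.68 and 11.8 against 3.66, 2.88 and 6.64 FPKM, overlapped between the groups and was not called (limma adjusted p = 0.310). ADAMTS5, a protease of proteoglycans, was under 1 FPKM in every library and was not called (limma adjusted p = 0.330). Its peak of 150 bp held 1 scored adenosine, a predicted site.

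Of the signalling lists, 9 of 30 genes of TGF-beta, activin and BMP signalling had a name, with 4 lower and 1 higher in Y30M, and 6 of 24 Wnt genes, with 5 lower and 1 higher. Over all genes tested, named or not, 16.4% were lower and 25.3% higher. BMPR2, a type II BMP receptor, carried a Y6M-only peak of 1691 bp and measured 5.37, 5.68 and 10.3 FPKM in the juvenile yaks and 4.30, 2.37 and 4.25 FPKM in the mature ones. The groups did not overlap, but it was not called (log2 fold change -0.79, limma adjusted p = 0.120). FZD7, a Frizzled receptor for Wnt proteins, measured 8.60, 6.07 and 5.41 against 2.43, 1.14 and 0.937 FPKM (log2 fold change -1.65, SE 0.34, limma adjusted p = 0.00659). Its peak of 248 bp (chr2:50719648-50719895) was the 1 peak reached in the gene, and 4 of its 5 scored adenosines were predicted sites, the best at 0.714.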

How the data were processed

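Per the study's methods, reads were trimmed with Trimmomatic, cleared of ribosomal RNA with SortMeRNA and aligned with HISAT2 to LU_Bosgru_v3.0, and MeTDiff called peaks with input as control. The authors deposited 1 peak list per group with a prediction score for each scored adenosine (predictor not given in the sources used here), and a comparison table with the fold enrichment ratio and other values such as log10 of the enrichment false discovery rate. Columns of that table with the authors' difference between ages (fold change, p and false discovery rate) were not used. The authors also deposited FPKM of 6 input libraries, from a tool not given in the sources used here. Read totals are not in these files. The steps of low FPKM values gave depths of 0.752 to 1.07 relative to Y30M replicate 1, with Y6M replicate 3 shallowest, and 16947 to 18052 genes were above 0.

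Peaks were the unique chromosome, start and end of a list, printed 1-based. A gene was reached through a row of the comparison table that overlapped the peak by 1 bp or more. Limma 3.58.1 (R 4.3.3) with a mean-variance trend was fitted on log2(FPKM + 1) to the 19477 of 20953 genes above 0 in at least 1 library. The trend was chosen after fits with and without it had been seen. On simulated data (19477 genes), 55% of genes changed by 2 and 97% of those changed by 4 on the log2 scale were called. Of unchanged genes, 0.0156% were called. The simulation changed far fewer genes than were called in the data, all with a mean log2(FPKM + 1) above 2. Its adjusted p threshold was thus stricter, and 55% is not the sensitivity of the real comparison. With 3 yaks a group, a single-gene test cannot reach an exact permutation p under 0.1, so only the model across all genes was used. Deviations from group means correlated over genes at 0.209, 0.283 and 0.604 between same-numbered yaks (replicates 1 to 3). The labels do not say what a number marks. Yaks 1 and 2 correlated about as much across numbers, at 0.322 (Y6M 1 with Y30M 2) and 0.253 (Y6M 2 with Y30M 1). These values thus give no sign that numbers 1 and 2 mark pairs. The third pair stood apart, with correlations of -0.47 to -0.29 with other numbers. Libraries were grouped by their labels.

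Names came from 2147 pairs of gene ID and symbol in the study's supplementary tables. These hold the peaks and genes that the study reported, and 2144 of the 19477 genes tested had a name. Named genes are therefore not a random part of the gene lists, of the cell type markers or of all genes. The named peaks and genes were those with the highest score, most predicted sites, greatest or least length, highest enrichment, 3 or more Y6M-only peaks, largest called changes, highest mean FPKM, a place in a gene list, or nearest to the overlap threshold. The lists were m6A regulators, testis cell type markers, matrix and adhesion, TGF-beta, activin and BMP, and Wnt genes. The regions and lists were chosen with earlier results of these data known. Genome sequence was not used here.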

Additional observations from a re-analysis of the deposited data

How the results depend on the processing

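The number of Y6M-only peaks depended most on the overlap rule. It was 652 when only a shared span of 50% or more of each peak took a peak out, 350 when a Y30M peak within 200 bp also took it out, and 371 when overlap was judged on scored adenosines. Chromosome 1 alone gave 169 and chromosome 2 alone 194 peaks, and 267 were at most 5000 bp long. The median length was 1109 bp with the 50% rule, 1360 bp with the 200 bp rule, 1237 bp by scored adenosines, 524 bp for peaks of at most 5000 bp, and 1546 and 1177 bp on chromosomes 1 and 2. The share of adenosines predicted as sites was 19.9% with the 50% rule and 20.6% for peaks of at most 5000 bp. The median score was 0.414, 0.411, 0.421, 0.408 and 0.413 with the 50% rule, the 200 bp rule, peaks of at most 5000 bp, chromosome 1 and chromosome 2.

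For the 157 genes, the count lower in Y30M ranged from 38 to 60 and the count higher from 17 to 28 over the alternatives that kept all 6 libraries. Leaving out 1 library gave 36 to 49 lower and 14 to 25 higher. With the replicate number as a block, 60 were lower and 28 higher, and among the 28 genes plotted by library the block changed the call of HSPD1 alone. Over these 28 genes, no direction changed, and no call was lost in any fit run. Without the mean-variance trend, an alternative chosen after seeing the data, 48 were lower and 21 higher. POLR2D was called higher in that fit, with TPM, with genes of at least 1 FPKM, at unadjusted p and without Y30M replicate 2 (log2 fold change 1.02), and BMPR2 was called lower with median-of-ratios scaling (log2 fold change -0.89). The median log2 change of all genes was 0.11 with TPM and 0.01 with median-of-ratios scaling.

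With 1 peak list a group, no peak value carries a replicate error, and with 3 yaks a group small changes of expression may be missed. In the simulation, 55% of genes with a log2 change of 2 were called. It changed far fewer genes than were called in the data, so this share does not carry over to them.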
